A study of Mus musculus and synthetic RNA with 74 samples.

Results

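Among the RNAs of a randomized library that was methylated in vitro by METTL16, 384 of 36835 predicted secondary structures had 2 hairpins with position 15, the adenosine to be methylated, in 1 of the 2 hairpin loops. These structures are called members here. They were found from the dot-bracket notation alone, in which a dot is an unpaired nucleotide and a pair of brackets is a base pair, as the structures with at least 2 hairpin loops of which 1 contains position 15. All 384 had exactly 2 hairpins side by side. Position 15 lay in the loop of the first hairpin, on the 5′ side, in 249 members and in the loop of the last hairpin in 135.

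METTL16 is a methyltransferase that writes N6-methyladenosine (m6A) into RNA with S-adenosylmethionine (SAM) as the methyl donor. Its established substrates, a set of hairpins in the MAT2A mRNA and the U6 small nuclear RNA, are structured RNAs with a shared motif of UACAGAGAA. The A that follows the initial UAC of the motif receives the methyl group. Because SAM is made by the enzyme that MAT2A encodes, methylation of the MAT2A hairpins ties the level of this mRNA to the supply of SAM.

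The experiment offered human full-length METTL16, made as a recombinant protein, RNAs of 30 nt in which the motif stands at positions 12 to 20 between randomized flanks. Part of each of 2 reactions, numbered 11 and 12, was kept as input, and the remainder was immunoprecipitated with an antibody against m6A (m6A-IP), which gave 2 input and 2 m6A-IP libraries. Every library, input included, came from RNA incubated with METTL16, and no library without enzyme was analysed here, so a value compares m6A-IP with input and is no methylation level. Each structure sums all sequences predicted to fold into it, and the deposited signal is the number of reads divided by a size factor of the library.

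The design is shown with the bases of the motif named and the adenosine at position 15 as the only capital, and beneath it the whole family is represented by the member with the largest log2 fold change among those of sufficient depth (A), 4 further enriched members (B to E), both depleted members of that depth (F and G) and the 3 most abundant in input (H to J).

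Design: nnnnnnnnnnnuacAgagaannnnnnnnnn
Structure A: .......(((.....)))..((....))..
Structure B: ......((((.....))))(((....))).
Structure C: ......(((......)))..((....))..
Structure D: .......(((.....)))...((....)).
Structure E: ((....))((((........))))......
Structure F: (((............))).((((...))))
Structure G: ...(((.........)))..(((....)))
Structure H: ....(((........)))..(((....)))
Structure I: ....(((........))).(((....))).
Structure J: .....(((.......)))..(((....)))

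In 234 members position 15 was the last base of the loop of the first hairpin, as in structures A to D and F to J, so that the base after it, G16 of the motif, closed the stem. In 78 it was the first base of the loop of the last hairpin, with the UAC of the motif on the 5′ strand of the stem. In the other 72 it lay further inside a loop, or at the end of the loop of the last hairpin. The loop with position 15 ranged from 3 to 15 nt and its stem from 3 to 5 pairs, while the hairpin without position 15, called the companion hairpin here, had 2 to 4 pairs and a loop of 3 to 6 nt.

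Depth was uneven. The libraries held 20454163 (input 11), 18106811 (input 12), 22118622 (m6A-IP 11) and 1154715 (m6A-IP 12) reads, and the median member had 78, 70, 106 and 6 of them. In m6A-IP 12, 4 members had no read, and 92 had at most 3. Members therefore could not be told apart 1 by 1 unless they differed widely, and summed values over groups of members are given beside them. With 2 libraries a group, the exact permutation test of a summed value cannot give a p below 0.333, and p-values measure only the spread between these libraries. The 21 contrasts of summed values computed here had an adjusted exact p of at least 0.368. The table lists no structure with a mean signal over the 4 libraries below 16.8, so a member with little input is present only if its m6A-IP signal was high. In 37 members the mean input was itself below 16.8. In 232 it was at least 33.7, enough to reach the smallest listed mean from input alone, and values over these 232, a selection made after the data were seen, are given where they bear on a result.

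The members took a slightly larger share of the reads after m6A-IP than in input. They took 0.227% (95% Wilson interval 0.225 to 0.229) of the reads of input 11 and 0.224% (0.222 to 0.226) of input 12, against 0.279% (0.276 to 0.281) of m6A-IP 11 and 0.294% (0.285 to 0.304) of m6A-IP 12. Both m6A-IP shares lay above both input shares, by a mean of 0.34 on the log2 scale or 1.27-fold (0.29 in reaction 11 and 0.39 in reaction 12, exact p = 0.333, the smallest possible). The intervals cover counting error only. With the deposited size factors, the members' summed signal changed by 0.23 in reaction 11 and −0.01 in reaction 12 (mean 0.11). In m6A-IP 12 this sum was below both inputs.

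In limma's test across all 36835 structures, 52 members (13.5%) were enriched and 8 (2.08%) were depleted in m6A-IP at an adjusted p of at most 0.1. Across all structures tested 12.5% were enriched and 27.2% were depleted. The share of enriched members was thus near the background, while depleted members were rarer. The median log2 fold change was 0.08 over the members and −0.27 over the table. With the reactions as a block, 44 members were enriched and 16 depleted, against 11.6% and 29.5% of the table. The counts rested on which libraries entered. Without the shallow m6A-IP 12, 161 members were enriched and 37 depleted, beside 30.4% and 41.1% of the table, and without m6A-IP 11 these were 129 and 137, beside 22.9% and 56% of the table. Without input 11 there were 4 and 0 calls, beside 2.36% and 5.71% of the table, and without input 12 there were 3 and 0, beside 2.32% and 5.41% of the table. When each library was scaled to its own total instead of by the deposited size factors, 104 members were enriched and 4 depleted, against 22.5% and 24.8% of the table, and the median was 0.30. Among the 232 members with enough input 27 were enriched and 6 depleted, with a median of 0.05. The m6A-IP values did not overlap the input values in 137 members that were higher and 58 that were lower, beside 25.3% and 47.3% of all structures.

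Removal of the companion hairpin gave the nearest single-hairpin structure. Each member has a counterpart in the table, identical but for the brackets of the companion, which are dots in it, and 94 such counterparts serve all 384 members. Of these counterparts 0 were enriched and 48 were depleted. Their summed signal was 672961 and 667509 in input and 559547 and 444119 in m6A-IP, while that of the members was 24105 and 23716 in input and 28294 and 23558 in m6A-IP. The ratio of members to counterparts was higher in both m6A-IP libraries than in both input libraries, by 0.50 in reaction 11 and 0.58 in reaction 12 on the log2 scale (mean 0.54, 1.45-fold, exact p = 0.333).

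Taken member by member, 310 of 384 had a higher log2 fold change than their counterpart, with a median difference of 0.48 and quartiles of 0.11 and 0.79. In 264 members the difference was positive in both reactions and in 31 it was negative in both. All 52 enriched members had a counterpart that was not called in either direction, and 84 members without a call had a depleted counterpart. Counterparts were far more abundant, with a median ratio of 142 to their members in mean signal. The counts member by member are over all 384, including members listed only with the help of m6A-IP. Over the 232 members with enough input, the summed difference from counterparts was 0.49 (exact p = 0.333).

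Members also stood above the 23501 single hairpins with position 15 in the loop as a whole, by 0.57 and 0.66 in the 2 reactions (mean 0.62, exact p = 0.333). They stood below both other kinds of two-hairpin structure. Relative to the 3127 with position 15 paired, of which 858 were enriched and 174 depleted, they were lower by 0.20 in reaction 11 and 0.15 in reaction 12. Relative to the 1147 with position 15 unpaired between the stems, of which 600 were enriched and 3 depleted, they were lower by 0.53 and 0.48. In each case both m6A-IP libraries lay on the same side of both input libraries (exact p = 0.333). Median log2 fold changes followed the same order, at −0.46 for single hairpins, 0.08 for members, 0.30 for position 15 paired and 0.67 for position 15 between stems.

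Which of the hairpins held position 15 made little difference. The 249 members with it in the first hairpin summed to 17060 and 16792 in input and 20024 and 16835 in m6A-IP, and the 135 with it in the last summed to 7044 and 6924 in input and 8270 and 6723 in m6A-IP. The ratio of first to last differed between m6A-IP and input by −0.00 in reaction 11 and 0.05 in reaction 12 (exact p = 1). Of the first group 38 (15.3%) were enriched and 6 (2.41%) depleted, and of the last group 14 (10.4%) were enriched and 2 (1.48%) depleted. Across all structures these shares were 12.5% and 27.2%.

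Small loops around position 15 had a higher ratio of m6A-IP to input than large ones. Loops of 3 to 6 nt, 101 members, summed to 6268 and 6222 in input and 8466 and 7291 in m6A-IP. Loops of 7 nt or more, 283 members, summed to 17837 and 17494 in input and 19827 and 16267 in m6A-IP. The small loops were above both inputs in both m6A-IP libraries, whereas the large loops were above them only in m6A-IP 11. The difference between the sizes was 0.28 in reaction 11 and 0.33 in reaction 12 (mean 0.31, 1.24-fold, exact p = 0.333). Of the 101 small loops 23 were enriched and 0 were depleted by limma, and of the 283 large loops 29 were enriched and 8 depleted. Across all structures 12.5% were enriched and 27.2% depleted. With enough input these were 13 and 0 of 63 small loops and 14 and 6 of 169 large loops, and the summed difference was 0.32.

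The loop of 5 nt stood out among the small ones. Its 28 members had a median log2 fold change of 0.55 and 12 of them were enriched, while loops of 3, 4, 6, 7 and 8 nt had medians of 0.19, 0.26, 0.22, 0.00 and 0.06. In 26 of the 28 the loop read nuacA, a random base followed by the first 4 bases of the motif, with position 15 at its 3′ edge. These 26 summed to 1795 and 1718 in input and 2718 and 2308 in m6A-IP, and 24 of them lay above their counterpart. Of the 18 with enough input 7 were enriched, with a median of 0.50. They include structures A, B and D.

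This difference was seen in the first hairpin, where small loops exceeded large ones by 0.37 in reaction 11 and 0.45 in reaction 12 (mean 0.41), with medians of 0.32 over 86 members and 0.03 over 163. In the last hairpin the summed difference was −0.08 and −0.20, with only 15 small loops against 120 large ones and 114 reads of the former in m6A-IP 12. Whether the hairpins differ in this respect was not tested.

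One large loop of the last hairpin departed from its class. The loop acAgagaa, positions 13 to 20, holds all of the motif but its first base and was closed by that U. Its 5 members summed to 289 and 296 in input and to 600 and 513 in m6A-IP, and each of the 5 was enriched, with log2 fold changes of 0.71 to 1.21. The highest of them paired it with a companion at positions 1 to 8:

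Loop acAgagaa, highest: ((....)).(((........))).......

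This structure had signals of 39.9 and 34.5 in input and 95.1 and 90.1 in m6A-IP. Both m6A-IP values were above both inputs, and the log2 fold change was 1.21 ± 0.20 (SE; limma, adjusted p = 0.016). Its counterpart had 0.34 (adjusted p = 0.21). This loop was singled out after its values were seen, and its 5 members share 2 counterparts.

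Members with abutting and with separated stems did not differ beyond the spread between libraries. The 190 members whose stems abut and the 194 with 1 to 4 nt between them differed by −0.04 in reaction 11 and 0.05 in reaction 12 (exact p = 1). Wide gaps were higher than narrow ones. Members with 0 or 1 nt between the stems were lower than those with 3 nt or more by a mean of 0.25 (exact p = 0.333), with both m6A-IP libraries on 1 side of both inputs. Medians were 0.07, 0.04, 0.16, 0.20 and 0.39 for gaps of 0, 1, 2, 3 and 4 nt. The last 2 gaps hold 20 and 8 members with 230 and 38 reads in m6A-IP 12, and with enough input 14 and 1 members.

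Members also differed by the companion hairpin, which takes up at most the last 2 bases of the motif. Only 27 different companions occur, 17 on the 3′ side and 10 on the 5′ side. They were grouped, after their values had been seen, by the unpaired nucleotides left between the companion and the nearest end of the RNA. With 0 such nucleotides, 196 members summed to 13230 and 12975 in input and 13807 and 11706 in m6A-IP. With 1, 143 members summed to 8923 and 8785 in input and 11009 and 8976 in m6A-IP. With 2, 45 members summed to 1952 and 1956 in input and 3477 and 2876 in m6A-IP.

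With 2 both m6A-IP sums were well above both inputs, with 1 that of m6A-IP 12 was close to input, and with 0 it was below input. Members with 2 unpaired end nucleotides exceeded those with 0 by 0.77 in reaction 11 and 0.70 in reaction 12 (mean 0.74, 1.67-fold, exact p = 0.333), and those with 1 exceeded those with 0 by 0.24 and 0.18. The medians of the log2 fold change were −0.06, 0.11 and 0.71 for 0, 1 and 2 nt. Enriched were 14 of 196, 17 of 143 and 21 of 45, beside 12.5% of all structures. All 8 depleted members were among those with 0, beside 27.2% of all structures depleted. Of the 45 members with 2, 12 had a mean input below the smallest listed mean, so these counts depend in part on what was listed. The 45 carry only 4 companions, in 21, 15, 7 and 2 members, so end nucleotides cannot be told apart from the companions themselves. The rarest of the 4 had a median of 0.15 with 0 enriched. With enough input, the medians were −0.12, 0.10 and 0.44 over 118, 93 and 21 members, of which 8, 12 and 7 were enriched, and the summed difference between 2 and 0 was 0.62 (exact p = 0.333). These 21 were 16 and 5 members of 2 companions.

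The order held within the other classes. Between 2 and 0 end nucleotides the difference was 0.92 and 0.72 in the 2 reactions where position 15 was in the first hairpin, and 0.27 and 0.77 where it was in the last, the latter with 7 members of 2 nt. It was 0.86 and 0.80 among small loops and 0.72 and 0.65 among large loops. These differences include members listed only with the help of m6A-IP. With enough input, the mean differences were 0.68 for the first hairpin and 0.49 for the last. They were 0.70 for small and 0.58 for large loops. Small loops in turn remained above large ones with 0, 1 and 2 end nucleotides, by mean differences of 0.23, 0.35 and 0.38. With enough input these were 0.26, 0.37 and 0.38. The lowest median was that of the first hairpin with large loops and 0 end nucleotides, in which 0 of 67 were enriched, 6 were depleted and the median was −0.18.

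A single companion was shared by 12 of the 21 enriched members with 2 end nucleotides, all of them scarce in input. It is printed first below, followed by the same hairpin moved by 1 and by 2 nt toward the 3′ end and by 4 other frequent companions. Members with the first companion cannot be compared with the rest on equal terms, because none had enough input to be listed without m6A-IP.

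Companion P: ...................(((...)))..
Companion P shifted by 1: ....................(((...))).
Companion P shifted by 2: .....................(((...)))
Companion Q: ....................((....))..
Companion R: .....................((....)).
Companion S: ....................(((....)))
Companion T: ...................((((...))))

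Companion P, at positions 20 to 28, begins with the last A of the motif and has 3 pairs around a loop of 3 nt. Its 15 members summed to 214 and 222 in input and 659 and 527 in m6A-IP, with 76 reads in m6A-IP 12. Their mean input was below the smallest listed mean in 9 of the 15, and in 0 was it enough to list the member without m6A-IP. Members with this companion and a low m6A-IP signal would thus be absent from the table, and the median log2 fold change of 1.15 and the 12 enriched among the 15 describe only those listed.

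Shifted by 1 nt, the same hairpin gave a median of 0.06 over 22 members, of which 1 was enriched. Shifted by 2 nt, it gave 0.14 over 14 members, of which 1 was enriched. Companion Q, which also leaves 2 nt at the end, had a median of 0.50 with 7 of 21 enriched, and 0.44 with 5 of 16 enriched where input was enough. Companion R, the same hairpin moved by 1 nt, had 0.25 with 8 of 41 enriched. Moved by 2 nt, to end at position 30, it had 0.29 over 10 members with 0 enriched. A hairpin of 4 pairs at positions 19 to 29, which leaves 1 nt, had 0.62 over 5 members with 2 enriched. Of these 10 and 5 members, 1 and 0 had enough input. Companions S and T, which end at position 30, had medians of −0.27 over 29 members and −0.28 over 18, with 1 and 0 enriched and 2 depleted each.

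The companions were also listed alone, as single hairpins that leave position 15 unpaired in the 5′ or 3′ tail. Companion P alone, abundant enough to be listed from input, had signals of 794 and 745 in input and 1595 and 1435 in m6A-IP. Both m6A-IP values were well above both inputs, and its log2 fold change was 0.97 ± 0.15 (SE; limma, adjusted p = 0.016). Of the 27 companions alone 5 were enriched and 0 depleted. The others besides P and Q leave 1, 1 and 0 end nucleotides, at 0.85, 0.68 and 0.39 (limma, adjusted p = 0.031, 0.039 and 0.094). Companion Q alone had 0.54 (adjusted p = 0.073), S alone 0.03 (adjusted p = 0.91) and T alone 0.08 (adjusted p = 0.75) by limma. Across the 27 companions, the median of the members and the value of the companion alone had a Pearson r of 0.65, as a description of points that share libraries and depth. It also depends on what was listed. The companions with the highest values alone, P and that of 4 pairs at positions 19 to 29, had 0 members with enough input. Their member medians of 1.15 and 0.62 cover only members listed with the help of m6A-IP.

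The same companions occur in two-hairpin structures that are not members. Over all 27 companions, structures with position 15 paired had medians of 0.14, 0.18 and 0.41 for 0, 1 and 2 end nucleotides. Of these 20.0%, 20.7% and 33.9% were enriched. Those with position 15 between the hairpins had medians of 0.45, 0.37 and 0.84, with 35.0%, 35.2% and 53.7% enriched. Across all structures 12.5% were enriched. These medians too are over what was listed.

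The set of 14 members that share the nuacA hairpin of structures A and D shows the companion with position 15 held in 1 fixed loop. Their counterpart, that hairpin alone, had a log2 fold change of −0.10 (limma, adjusted p = 0.73), with signals of 21548 and 21337 in input and 22047 and 18076 in m6A-IP. With companion P, scarce in input here too, the value was 1.48, with Q (structure A) 0.996 and with R (structure D) 0.79. With P shifted by 1 or 2 nt it was 0.48 and 0.48, with S 0.19 and with T 0.00. Of the 14 members 7 were enriched and 0 depleted, and the median was 0.64. The 17 members that share the loop nnnnuacA of structures H and I had a median of −0.03, from 0.92 with companion P, again scarce in input, to −0.52, and 1 was enriched.

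Members also differed by the stem of the companion, but not in 1 direction among companions with the same number of end nucleotides. With 2 end nucleotides, companion medians were 1.15 and 0.15 for 3 pairs and 0.62 and 0.50 for 2. The 1.15 is that of companion P, whose members were listed only with the help of m6A-IP. With 1, medians were 0.62 for 4 pairs, 0.06 to 0.32 for 3 and −0.08 to 0.25 for 2. With 0, they were −0.28 to −0.02, −0.27 to 0.14 and −0.52 to 0.29. The values below are not split by end nucleotides. All 8 depleted members leave 0 end nucleotides, so the 2 features overlap. Companions of 2 pairs, 195 members, had 30 enriched and 0 depleted, while those of 3 or 4 pairs, 189 members, had 22 enriched and 8 depleted. Across all structures 12.5% were enriched and 27.2% depleted. Summed values differed by 0.28 in each reaction (exact p = 0.333), and the medians were 0.17 for 2 pairs, 0.06 for 3 and −0.05 for 4.

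Among the 67 members with a mean signal of at least 100, 8 were enriched and 2 depleted, beside 12.5% and 27.2% of all structures of any depth. The share enriched was thus near the background. Structures A to G are named from these 67. Structure A, a nuacA loop with companion Q, had 91.8 and 94.7 in input and 228.7 and 159.4 in m6A-IP. The values did not overlap, and the log2 fold change was 0.996 ± 0.22 (SE; limma, adjusted p = 0.029). Structure B, in which stems of 4 and 3 pairs abut, had 87.1 and 76.0 in input and 143.3 and 187.1 in m6A-IP. Its log2 fold change was 0.97 ± 0.20 (SE; limma, adjusted p = 0.027), against −0.39 for its counterpart and −0.13 for its companion alone, neither of which was called.

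Structure C, with the loop nnuacA, had 104 and 108 in input and 206 and 201 in m6A-IP. It had the closest agreement of the 5 between reactions, at 0.95 and 0.87, and a log2 fold change of 0.91 (limma, adjusted p = 0.019). Structure D had 103 and 93.6 in input and 217 and 139 in m6A-IP, with a log2 fold change of 0.79 (limma, adjusted p = 0.063). Structure E, the only 1 of the 5 with position 15 in the last hairpin, had 83.0 and 86.5 in input and 163 and 139 in m6A-IP, with a log2 fold change of 0.79 (limma, adjusted p = 0.031). Its loop is the acAgagaa loop described above. In none of the 5 did m6A-IP overlap input, and the counterparts of the 5 lay between −0.39 and −0.10 without a call.

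Structure F has the loop with 12 nt and companion T. It had 128 and 140 in input and 93.7 and 69.3 in m6A-IP, both below both inputs, and a log2 fold change of −0.70 ± 0.21 (SE; limma, adjusted p = 0.058). Structure G, with a loop of 9 nt and companion S, had 205 and 196 in input and 153 and 132 in m6A-IP, with a log2 fold change of −0.48 (limma, adjusted p = 0.082). Their counterparts were at −0.25 and −0.17. With the reactions as a block structure G lost its call (limma, adjusted p = 0.15).

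None of the 3 members with the highest input was called. Structure H had 474 and 459 in input and 429 and 347 in m6A-IP, structure I 339 and 356 in input and 355 and 243 in m6A-IP, and structure J 304 and 305 in input and 276 and 173 in m6A-IP. In H and J the m6A-IP values lay below input, and in I they overlapped it. Their log2 fold changes were −0.27, −0.24 and −0.47, and those of their counterparts −0.30, −0.30 and −0.38.

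Summed by shape, that is by loop size, which hairpin holds position 15 and distance to the other stem, the members formed 73 of 401 shapes. By limma 16 shapes were enriched and 2 depleted, beside 49.4% and 6.48% of all shapes. With the reactions as a block these were 6 and 2, beside 39.4% and 3.49% of all shapes, and with libraries scaled to their totals 43 and 2, beside 75.6% and 6.73% of all shapes. Only 4 member shapes had a mean summed signal of at least 1000. The largest change among these was 0.14 (limma, adjusted p = 0.51), for the 19 members with a loop of 8 nt in the last hairpin next to the first stem, with 1284 and 1285 in input and 1673 and 1206 in m6A-IP. The other 3 lay between −0.14 and −0.03 and none was called.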

How the data were processed

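Values were those of 4 libraries, input and m6A-IP of reactions 11 and 12. The authors kept reads with the motif in place, predicted the fold of each RNA with RNAfold, summed reads for each dot-bracket string and normalized the counts with the size factors that DESeq2 1.18.1 gives; the deposited values are this signal. Filters behind the structures listed are not given in the sources used here; the smallest mean signal is 16.8. All values were whole multiples of 1 read within 0.01, and the reads given are values divided by that step. The deposited table also holds the authors' mean, log2 fold change, its error, test statistic and p-values, which were not used. Embryo tables of the series were not used here.

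Structures were parsed in Python 3.11.15 (numpy 2.4.6, pandas 2.3.3). log2(signal + 5) was tested over all 36835 structures, and likewise over sums by shape, with limma 3.58.1 in R 4.3.3 (moderated test with a mean-variance trend, Benjamini-Hochberg adjustment, adjusted p of at most 0.1), after tests on simulated data; fold changes of scarce structures are understated on this scale. A test of counts had been planned; limma was used because the deposited signal is normalized, and no count model was run on the reads calculated back. Ratios of summed signal were compared by two-sided exact permutation tests over libraries, and these do not depend on library scaling. Shares of reads carry Wilson intervals.

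Input and m6A-IP with 1 number are portions of 1 reaction according to the methods; their deviations from the group means correlated with r = 0.015 over all structures and 0.084 over members. Named members had a mean signal of at least 100 (the 5 largest enriched and up to 5 smallest depleted) or were the 3 highest in input, and named shapes had a mean of at least 1000. Companion groups, the selection of members by input, the acAgagaa loop and the comparisons within hairpins were added after the data were seen, and members and lists were chosen with earlier results of these data known. Alternatives were the pseudocount, scaling, minimum mean signal, block, median over structures, limits of the loop and gap classes, and omission of each library.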

Additional observations from a re-analysis of the deposited data

How the results depend on the processing

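Summed contrasts of members with their counterparts, with all single hairpins, with both other two-hairpin classes, of loop size over all members and of the end nucleotides kept their direction under every alternative run, and small against large loops ranged from 0.25 to 0.34. Scaling libraries to their totals gave 104 enriched and 4 depleted members, a median of 0.30 and 43 enriched shapes; the block gave 16 depleted members and 6 enriched shapes, and it changed no other count by more than 1.5 times; a mean signal of at least 50, chosen after seeing the data, left 29 enriched members. Without 1 library, enriched members ranged from 3 to 161, depleted members from 0 to 137, their median from −0.04 to 0.23, enriched shapes from 0 to 51 and depleted shapes from 0 to 29. Contrasts that changed sign were these. First against last hairpin was −0.057 with a mean signal of at least 50 and −0.011 with enough input, and ranged from −0.0013 to 0.047 without 1 library; adjacent against separated stems was −0.042 as a median over structures, −0.013 with enough input and −0.25 for a gap of 0 or 1 nt against 3 nt or more, and ranged from −0.069 to 0.075 without 1 library; small against large loops of the last hairpin was 0.021 as a median over structures against −0.14 for sums. Scaled to totals, shapes below 0 turned to 0.20 (7 nt loop, last hairpin, gap 0), 0.11 (8 nt, first, gap 2) and 0.093 (8 nt, first, gap 1), and without 1 library they ranged from −0.20 to 0.13, −0.31 to 0.066 and −0.30 to 0.018; the shape of 8 nt, last, gap 0 ranged from −0.091 to 0.38 and structure I from −0.51 to 0.032. The cause was not tested. Structures A to G lost their calls without input 11 and without input 12, structure G also when scaled to totals, and structures H to J were depleted without m6A-IP 11, structure H also without m6A-IP 12. With 1 library in a group, that library is assumed to vary like the other group. The change of the members was 0.34 as a share of reads and 0.11 with the deposited size factors. A count model on the reads calculated back was not run. About 6 reads per member in m6A-IP 12 limit what single members can show.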

Other observations

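The 384 members are combinations of 94 hairpins around position 15 with 27 companions, and both parts of every member were also listed alone, which allowed each member to be set beside its parts. The RNA predicted to be unfolded, 30 dots, had signals of 1341250 and 1329810 in input and 1269070 and 988861 in m6A-IP and a log2 fold change of −0.25 ± 0.53 (SE; limma, adjusted p = 0.74). Adding the log2 fold changes of a member's parts and subtracting that of the unfolded RNA gave a value whose median over the members was 0.14. The members differed from it by a median of −0.02, with quartiles of −0.33 and 0.25. The error of the unfolded RNA shifts every sum alike, so this median cannot show whether the parts add up. The Pearson r between members and this sum was 0.49, between members and the companion alone 0.46 and between members and the counterpart 0.24, while the members' own ratios in the 2 reactions had an r of 0.49. These are descriptions over 384 structures that share parts and libraries, and some of them were listed only with the help of m6A-IP.

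The SD of the log2 fold change was 0.54 over all members, 0.49 among members that share a counterpart and 0.45 among members that share a companion, and the median standard error of a single member was 0.26. Of the members, 168 lay between the values of their counterpart and companion alone, and 144 lay above that of the companion alone.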
